A study of Mus musculus with 2 samples.

Results

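Differentially accessible regions (DARs) in later introns are stretches of DNA whose openness differed between vector-treated and iBRD9-treated osteoclast precursors and that lie in intron 2 or a later intron of a gene. They were taken from the authors' table of all DARs as the rows annotated to an intron other than the first, leaving out rows 1 to 3000 bp downstream of the listed transcription start site (TSS). This gave 1137 of 5650 DARs. The rule used the annotation and the distance only, not the direction of change. The members closest to the limit lay 3008, 3058 and 3061 bp from their TSS, and the nearest rows left out lay 2922, 2932 and 2992 bp from theirs.

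The cells were bone marrow-derived monocytes (BMDMs), which become osteoclasts under M-CSF and RANKL, from C57BL/6 mice, which the methods give as wild-type C57BL/6J mice of 4 to 6 weeks. The MR + vector group was given RANKL at 100 ng/ml, M-CSF at 50 ng/ml and vehicle, and the MR + iBRD9 group received the same cytokines with iBRD9, an inhibitor of the bromodomain of BRD9. Each group was 1 ATAC-seq library made from 5000 cells after 24 h of treatment. A gain DAR was more open with iBRD9 and a loss DAR less open, by a log2 fold change of at least 0.5 as set by the authors. With 1 library per group there is no replicate check and no test, and every interval given here covers counting error only. The deposited tables list changed regions without counts, signal or fold changes, so the depth behind a DAR is unknown and the labelled cell type could not be checked against marker expression.

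An intron is transcribed and then spliced out, and its DNA can carry enhancers, short stretches that transcription factors bind and that act on a promoter at a distance, in the same gene or in another. ATAC-seq reads such stretches as open chromatin, because the Tn5 transposase inserts where nucleosomes are displaced. BRD9 is a subunit of the non-canonical BAF complex, a remodeller that moves nucleosomes, and its bromodomain binds acetylated lysines. In monocytes, enhancers are commonly bound by PU.1, C/EBP and RUNX factors, and RANKL adds AP-1 and NFATc1 during osteoclast differentiation.

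Regions of this kind are shown here by 10 DARs in introns of osteoclast or myeloid transcription factor genes. They are given 5′ to 3′ on the plus strand of GRCm39, and capitals mark a match to 1 of the 9 motifs described further on. They are shown because their hosts are on the lists for this lineage, and because the Inpp5d pair holds a gain and a loss DAR in the same intron. Of the 11 such DARs read as sequence, they are the first 10 by host name, and the remaining one, a gain DAR of Tcf7l2, held no match. AP-1 matches were in 5 of the 11, against 13.6% of all later-intron DARs, so the set is not typical in its motifs.
Inpp5d intron 2 of 26, gain, chr1:87565291-87565507: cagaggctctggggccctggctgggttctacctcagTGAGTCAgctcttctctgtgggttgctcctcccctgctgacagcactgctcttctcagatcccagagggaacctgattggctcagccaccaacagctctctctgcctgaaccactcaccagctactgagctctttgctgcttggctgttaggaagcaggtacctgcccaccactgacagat
Inpp5d intron 2 of 26, loss, chr1:87568135-87568385: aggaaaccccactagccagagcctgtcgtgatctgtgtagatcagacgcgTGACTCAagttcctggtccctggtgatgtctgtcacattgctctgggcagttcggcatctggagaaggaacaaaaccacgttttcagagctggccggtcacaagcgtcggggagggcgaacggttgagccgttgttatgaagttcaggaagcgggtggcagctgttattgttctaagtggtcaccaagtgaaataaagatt
Itgb3 intron 2 of 14, gain, chr11:104516365-104516575: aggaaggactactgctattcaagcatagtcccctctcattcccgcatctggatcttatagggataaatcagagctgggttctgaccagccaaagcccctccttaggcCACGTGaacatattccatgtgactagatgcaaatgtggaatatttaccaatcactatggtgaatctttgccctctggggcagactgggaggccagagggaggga
Itgb3 intron 10 of 14, gain, chr11:104547203-104547382: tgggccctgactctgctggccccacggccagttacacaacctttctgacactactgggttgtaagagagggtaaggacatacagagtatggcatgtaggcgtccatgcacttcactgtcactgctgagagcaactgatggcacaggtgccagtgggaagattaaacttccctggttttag
Calcr intron 6 of 14, gain, chr6:3716570-3716816: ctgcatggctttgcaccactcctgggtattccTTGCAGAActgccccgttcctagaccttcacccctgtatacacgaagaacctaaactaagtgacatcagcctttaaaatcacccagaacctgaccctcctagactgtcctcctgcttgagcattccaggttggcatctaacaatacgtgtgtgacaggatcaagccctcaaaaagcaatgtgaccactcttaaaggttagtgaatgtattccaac
Runx2 intron 3 of 5, gain, chr17:45013881-45014070: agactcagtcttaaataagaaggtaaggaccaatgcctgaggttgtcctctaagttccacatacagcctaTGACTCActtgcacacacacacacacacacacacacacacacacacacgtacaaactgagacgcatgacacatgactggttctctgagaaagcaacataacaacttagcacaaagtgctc
Bach1 intron 4 of 4, loss, chr16:87521723-87522003: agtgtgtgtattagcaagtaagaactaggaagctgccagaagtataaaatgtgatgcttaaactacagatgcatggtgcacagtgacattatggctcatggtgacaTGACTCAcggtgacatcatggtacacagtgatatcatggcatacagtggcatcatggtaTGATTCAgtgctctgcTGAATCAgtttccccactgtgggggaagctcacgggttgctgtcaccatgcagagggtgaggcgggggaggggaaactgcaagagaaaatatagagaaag
Elf4 intron 2 of 8, loss, chrX:47512679-47512867: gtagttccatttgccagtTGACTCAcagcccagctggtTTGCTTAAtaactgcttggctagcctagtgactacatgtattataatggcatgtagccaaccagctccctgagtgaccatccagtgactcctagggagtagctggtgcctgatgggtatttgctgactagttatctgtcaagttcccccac
Ikzf1 intron 8 of 8, loss, chr11:11712212-11712361: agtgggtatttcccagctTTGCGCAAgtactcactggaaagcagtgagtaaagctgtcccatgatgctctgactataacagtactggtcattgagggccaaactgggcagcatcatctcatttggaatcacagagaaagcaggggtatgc
Nfia intron 2 of 3, loss, chr4:97697162-97697369: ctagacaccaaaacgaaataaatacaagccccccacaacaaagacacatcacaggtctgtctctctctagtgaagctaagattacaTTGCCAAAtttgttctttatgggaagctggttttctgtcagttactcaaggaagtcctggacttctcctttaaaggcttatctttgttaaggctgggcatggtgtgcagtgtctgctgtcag

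In the Inpp5d pair, the gain DAR and the loss DAR each held 1 AP-1 match. Inpp5d encodes SHIP1, a lipid phosphatase that restrains PI3K signalling in blood cells. Itgb3 encodes integrin β3, which osteoclasts use to attach to bone. Of its 2 gain DARs, the one in intron 2 held an E-box and the one in intron 10 held no match. Calcr, the calcitonin receptor gene, had a gain DAR with a C/EBP match. The AP-1 match was also found in the gain DAR of Runx2, the runt factor best known from osteoblasts. It occurred 3 times in the loss DAR of Bach1, a haem-sensitive repressor. The loss DAR of Elf4, an ETS family factor gene, held 1 AP-1 and 1 C/EBP match and lay on chromosome X. The loss DARs of Ikzf1, the lymphoid and myeloid factor Ikaros, and of Nfia, a nuclear factor I gene, each held 1 C/EBP match.

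Later-intron DARs were split between gain and loss much as all DARs were. Of the 1137, 642 were gain and 495 were loss, a gain share of 56.5% (95% Wilson interval 53.6 to 59.3), where 55.9% of all 5650 DARs were gain and 44.1% were loss. The gain share of all DARs outside later introns was 55.8% (54.4 to 57.3). Later introns held 20.3% of all gain DARs (18.9 to 21.7) and 19.9% of all loss DARs (18.4 to 21.5). In first introns, under the same distance rule, 274 of 531 DARs were gain, or 51.6% (47.4 to 55.8). The interval of the first introns overlapped that of the later introns.

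Gain and loss DARs lay in introns of similar rank. The median intron number was 4 for both, with quartiles of 2 and 8. Intron 2 alone held 26.5% of the gain DARs (23.2 to 30) and 30.3% of the loss DARs. Introns 3 to 4 held 27.7% and 27.1%, introns 5 to 9 held 24.9% and 22%, introns 10 to 19 held 14.3% and 13.9%, and introns 20 or later held 6.54% and 6.67%. The last intron of the host transcript held 15.7% of gain and 16.6% of loss DARs. The highest intron numbers belonged to loss DARs of Ryr2, a calcium release channel gene (intron 99 of 104), Hmcn2, which encodes an extracellular matrix protein (intron 86 of 97), and Prkdc, the gene of the DNA repair kinase DNA-PKcs (intron 73 of 85). The rank of an intron depends on the transcript it is counted in. In the annotation used here (GENCODE M39), 1113 members lay wholly inside the same intron number of the named transcript. Of 1131 members with a host gene in it, 993 (87.8%) lay in a later intron of that gene's canonical transcript, 51 (4.51%) in its first intron and 87 (7.69%) in none. Of the same 1131 members, 278 (24.6%) lay in intron 1 of some other transcript of the host.

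**Figure D1:**
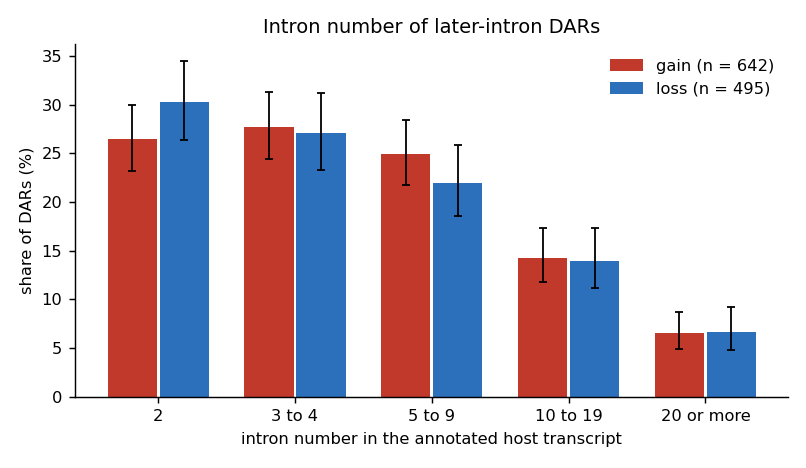
Share of gain DARs (red, n = 642) and loss DARs (blue, n = 495) by intron number in the annotated host transcript, in percent, with 95% Wilson intervals as error bars. Intron 2 held 26.5% of gain and 30.3% of loss DARs, and the intervals of both directions overlap in every class.

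The introns that held DARs were long. The median length of the intron was 30115 bp (26623 bp for gain, 37388 bp for loss), and the DAR itself had a median width of 186 bp. The median distance from a DAR to the closer splice site was 4942 bp for gain and 7104 bp for loss, and 18% of members lay within 1 kb of a splice site. Sorted by the length of the intron, the gain share was 61.7% in introns under 10 kb (192 of 311, 56.2 to 67) and 51.8% in introns of 100 kb or more (129 of 249, 45.6 to 57.9). The classes between them gave 57.4% and 53.7%, so that the shares ran downwards with length. The intervals of all classes overlapped, also those of the shortest and longest introns. Sorted by intron number, no such order was seen, with 53.1% in intron 2, 57.1% in introns 3 to 4, 59.5% in introns 5 to 9, 57.1% in introns 10 to 19 and 56% beyond.

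The distance to the listed TSS was somewhat shorter for gain than for loss DARs. The median was 17702 bp for gain (95% interval 15246 to 20171) and 21279 bp for loss (18619 to 23144), and these intervals overlapped. In first introns the median distance was 13956 bp, with 13840 bp for gain and 13986 bp for loss. Over all DARs the medians were 11388 bp for gain (10565 to 12370) and 12946 bp for loss (11859 to 14276). The same order was thus seen over all DARs and is not particular to later introns. Among later-intron DARs 3 to 10 kb from the TSS, 209 of 333 were gain, or 62.8% (57.5 to 67.8). Beyond 100 kb, 38 of 87 were gain, or 43.7% (33.7 to 54.1), and this interval did not overlap that of the closest class. The classes of 10 to 30 kb and 30 to 100 kb gave 54.3% and 56.1%, close to the share among all DARs. First-intron DARs 3 to 10 kb from the TSS were gain in 49.8% (102 of 205, 43 to 56.5), and all DARs outside later introns at that distance in 55.7% (428 of 768, 52.2 to 59.2). When the distance was measured to the nearest protein-coding TSS, the later-intron share was again highest in the closest class, at 62.3% (86 of 138, 54 to 70), while it was 53.4% (181 of 339, 48.1 to 58.6) beyond 100 kb. These intervals overlapped, unlike those for the listed TSS.

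**Figure D2:**
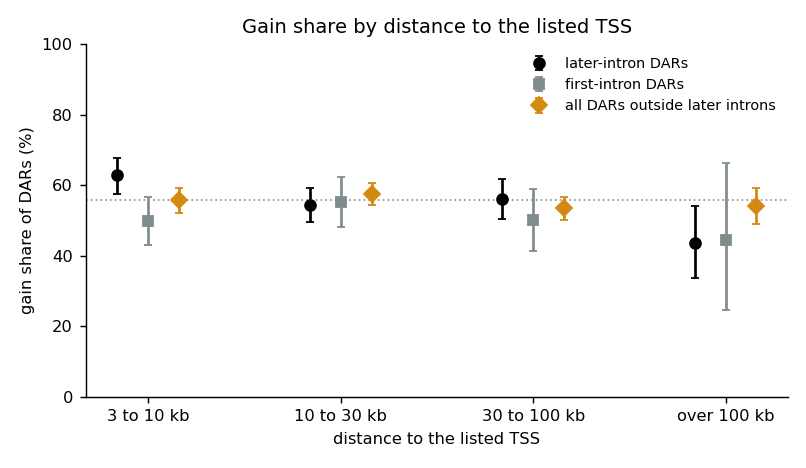
Share of gain among DARs in 4 classes of distance to the listed TSS, in percent with 95% Wilson intervals, for later-intron DARs (black), first-intron DARs (grey) and all DARs outside later introns (orange); the dotted line is the 55.9% of all DARs. The later-intron share is 62.8% in the closest class and 43.7% in the farthest.

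The farthest members were 2 gain DARs of Ptprd, a receptor phosphatase gene, at 483406 and 426546 bp, and a loss DAR of Cntnap5a, a neurexin family gene, at 437933 bp. The nearest were a gain DAR of Cacnb2, a calcium channel subunit gene, 3004 bp upstream of a listed TSS, a loss DAR of Psat1, a serine synthesis enzyme gene, at 3008 bp, and a gain DAR of Nid2, a basement membrane gene, at 3058 bp. Widths ran from 150 to 701 bp. The widest gain DARs lay in Dock10 (451 bp), Zeb2 (449 bp) and the non-coding Gm14051 (442 bp), and the widest loss DARs in Dpys (701 bp), Itpr2 (464 bp) and Irak4 (417 bp). The Ptprd, Cacnb2, Dpys and Irak4 members named here lay in no intron of the canonical host transcript. Dock10 activates Cdc42 and Rac, Zeb2 is a zinc-finger repressor of myeloid cells, and Irak4 is a kinase of Toll-like receptor signalling. Dpys is a pyrimidine-degrading enzyme, and Itpr2 is an IP3 receptor that releases calcium from the endoplasmic reticulum. A width of exactly 150 bp was recorded for 251 members (22.1%).

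In many cases the gene listed for a DAR was not the gene whose intron held it. The table names a host gene in the annotation text and, separately, the gene with the nearest TSS. The 2 differed for 503 of 1137 members, or 44.2% (41.4 to 47.1), against 180 of 531 first-intron DARs, or 33.9% (30 to 38). The share was 42.5% for gain (273 of 642) and 46.5% for loss (230 of 495). Of the 480 members with both genes in the annotation, the listed gene lay inside the host in 356 (74.2%) and on the same strand in 225 (46.9%). The listed gene was a lncRNA for 134 of the 503, a processed pseudogene for 122, an unverified transcript model of the TEC class for 83 and a protein-coding gene for 78. Small RNA genes made up most of the remainder, with 21 snRNA, 20 miRNA and 15 snoRNA genes. When only protein-coding TSSs and protein-coding hosts were used, the nearest gene was another one for 21.2% of members, with 21.1% for gain and 21.4% for loss.

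**Figure D3:**
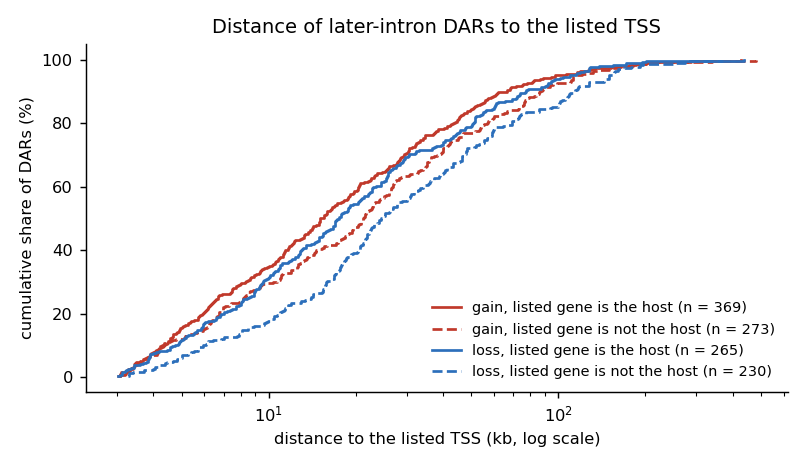
Cumulative share of later-intron DARs, in percent, by distance to the listed TSS in kb on a log scale, for gain (red) and loss (blue) and by whether the listed gene was the host (solid) or another gene (dashed). The medians were 15078 bp for gain and 17484 bp for loss where the host was listed, and 21230 bp and 24479.5 bp where it was not.

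Several genes of macrophage and bone biology were hosts under another gene's name. The loss DAR in the last intron of the annotated Irak4 transcript was listed under Twf1, an actin-binding protein gene. This DAR lay in no intron of the canonical Irak4 transcript. A loss DAR in Syn3, a synapsin gene, was listed under Timp3, an inhibitor of matrix metalloproteinases that lies inside Syn3 on the other strand, 3974 bp away. The loss DAR in intron 8 of 8 of Ikzf1 was listed under Fignl1, 39100 bp away. The gain DAR of Calcr was listed under Mir653, and the gain DAR of Runx2 under the antisense transcript Runx2os2. The intron of Syn3 that held the loss DAR also held a gain DAR, at a gap of 107264 bp and listed under the non-coding Gm15990. The same listed gene stood for 2 or more members in 37 cases, with 81 members in all, and 22 of the 37 mixed gain and loss. In Astn2, a neuronal adhesion gene, 2 gain DARs and 1 loss DAR were all listed under Trim32, a ubiquitin ligase gene, at 23045, 110733 and 367301 bp.

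Most hosts held 1 DAR. The 1137 members lay in 928 host genes, of which 776 held 1, 111 held 2 and 41 held 3 or more. Of the 152 hosts with at least 2, 94 held both gain and loss DARs, 39 gain only and 19 loss only. Hosts with 1 DAR had a median length of 139 kb and hosts with 3 or more of 649 kb. In the 41 hosts with 3 or more, 68 of 139 members were gain (48.9%), beside 56.5% of all later-intron DARs and 57.1% in hosts with 1. Members of a host are not independent, and this difference was not tested. Of the 41 hosts, 35 held both directions. Both directions were common among all members, so a host of several DARs can hold both without any tie between them. An excess of mixed hosts was not tested. Anks1b, Dnah11 and Immp2l held 3 gain DARs each and no loss DAR, while Fhit, Sntg1 and Syt1 held 3 loss DARs each and no gain DAR. Anks1b and Syt1 act at synapses, Dnah11 is a ciliary dynein, Immp2l is a mitochondrial peptidase, Sntg1 is a neuronal syntrophin and Fhit is a hydrolase at a fragile site.

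The host with the most members was Dlg2, a postsynaptic scaffold gene, with 2 gain and 4 loss DARs between introns 3 and 11. Rbfox1, a neuronal splicing factor gene, had 1 gain and 4 loss DARs, and Cdkal1, a tRNA-modifying enzyme gene, had 2 gain and 3 loss DARs. Zfhx3, a homeobox factor gene, had 4 gain DARs and 1 loss DAR. Its 3 gain DARs in intron 3 lay 496, 509 and 540 kb from the 5′ end of the gene and were all listed under the non-coding Gm39244. Cntnap2 and Itpr2 had 1 gain and 3 loss DARs each, Kirrel3 and Sox5 had 3 gain DARs and 1 loss DAR each, and Ptprn2 and Rbms3 had 2 of each. These counts depend on the annotated transcript. Some DARs of Dlg2, Rbfox1, Zfhx3, Cntnap2, Kirrel3, Sox5 and Rbms3, and of Syt1 named above, lay in intron 1 or in no intron of the canonical transcript. Of 84 very long genes listed for comparison, most of them known from neurons, 53 held a later-intron DAR. They held 107 DARs in all, 59 gain and 48 loss, a gain share of 55.1% (45.7 to 64.2) beside 55.9% among all DARs. Densities were taken over the later introns of each gene's canonical transcript, and only DARs in those introns were counted. The long genes held 82 such DARs, or 1.46 per Mb (exact Poisson interval 1.16 to 1.82), and all protein-coding genes held 859, or 1.3 per Mb (1.22 to 1.39), so the intervals overlapped. By gene size the density was 0.709 per Mb (0.449 to 1.06) in genes with under 10 kb of later-intron sequence, 1.7 per Mb (1.52 to 1.91) in genes with 100 to 300 kb and 1.35 per Mb (1.18 to 1.53) in genes with more. The sequence counted includes stretches 1 to 3000 bp downstream of a TSS, where the rule allowed no member. The densities are therefore low by an unmeasured amount, which can differ with gene size.

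**Figure D4:**
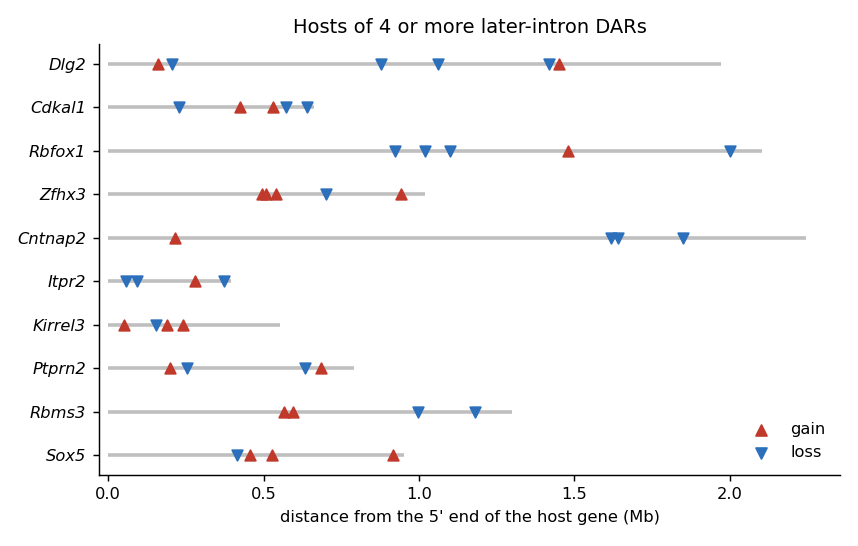
Positions of gain (red, pointing up) and loss DARs (blue, pointing down) along 10 host genes with 4 or more later-intron DARs, in Mb from the 5′ end of the gene, with the gene drawn as a grey line. All 10 hosts hold both directions, and Dlg2 holds the most, with 2 gain and 4 loss DARs.

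Gain and loss DARs were found side by side in single introns. In 60 introns with 2 or more members there were 68 neighbouring pairs, of which 14 were both gain, 15 both loss and 39 mixed. The direction was thus the same in 29 of 68 (42.6%, 31.6 to 54.5). With 56.5% gain among all later-intron DARs, unrelated neighbours would often be mixed, and an excess was not tested. At gaps of up to 5 kb, 1 of 9 pairs had the same direction (11.1%, 1.99 to 43.5), at 5 to 50 kb 16 of 36 (44.4%) and beyond 50 kb 12 of 23 (52.2%). In Sncaip, the synphilin gene, a gain and a loss DAR in intron 3 were 32 bp apart. In Shisa9 intron 2, a loss DAR of 341 bp was followed by a gain DAR of 166 bp after 215 bp. The Inpp5d pair printed above was 2627 bp apart in an intron of 30031 bp. In intron 10 of Apbb1ip, which encodes the talin-recruiting adaptor RIAM, a loss and a gain DAR were 3252 bp apart, and a further loss DAR lay in intron 3. Ptprc, the gene of the leukocyte marker CD45, had a loss and a gain DAR in intron 2 at a gap of 22279 bp, and only the loss DAR was listed under Ptprc. The single close pair with 1 direction was in Smyd1, a muscle methyltransferase gene, with 2 gain DARs 1279 bp apart, named after its values were seen.

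Genes of osteoclast differentiation held 6 later-intron DARs. Of 62 genes in that list, 4 were hosts, with 4 gain and 2 loss DARs. The gain share was 66.7% (30 to 90.3), beside 55.9% among all DARs. The density was 3.62 per Mb of canonical later introns (1.33 to 7.89). This interval lies just above the 1.3 per Mb of all protein-coding genes and overlaps its interval (1.22 to 1.39). The listed genes averaged 26.7 kb of later introns, and genes with 10 to 30 kb held 0.877 per Mb (0.698 to 1.09), an interval without overlap. A difference in density was not tested. Itgb3 had its gain DARs 11640 bp upstream of a listed Itgb3 TSS and 18988 bp downstream of one. The Inpp5d DARs lay 15895 bp (gain) and 18739 bp (loss) from the TSS. Plekhm1, a lysosomal trafficking gene that osteoclasts need to resorb bone, had a loss DAR in intron 5 of 11, 10814 bp from the TSS. Of 59 myeloid transcription factor genes, 9 were hosts, with 4 gain and 5 loss DARs. Their density was 2.94 per Mb (1.35 to 5.59), again just above 1.3 per Mb and overlapping 1.22 to 1.39. These genes averaged 51.8 kb of later introns, and genes with 30 to 100 kb held 1.2 per Mb (1.04 to 1.37). This difference was not tested either. The gain share of 44.4% (18.9 to 73.3) in the myeloid list was not distinguishable from the 55.9% of all DARs. Gain DARs lay in Runx2, Zeb1, Zeb2 and Tcf7l2, a Wnt pathway factor, and loss DARs in Ikzf1, Bach1, Elf4, Nfia and the E-protein gene Tcf4. No gene of this list held more than 1.

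The largest of the other lists were calcium signalling and the podosome, the actin structure by which osteoclasts seal to bone. Of 65 calcium and NFAT pathway genes, 15 hosted 23 members, 16 gain and 7 loss, a gain share of 69.6% (49.1 to 84.4) beside 55.9% among all DARs. The gain DARs lay in the protein kinase C genes Prkca (2), Prkcb (2), Prkce and Prkch, in Plcg2, which makes IP3 downstream of immune receptors, in the diacylglycerol kinase gene Dgki (2), in Camk2d, Itpr1 and Itpr2, and in 4 calcium channel subunit genes. The loss DARs lay in Itpr2 (3), Cacna2d3 (2), Camk2d and Ryr2. Of 70 podosome and adhesion genes, 11 hosted 10 gain and 3 loss DARs, a gain share of 76.9% (49.7 to 91.8). Gain DARs lay in Dock10 (2), in Rac1, Vav1, Asap1 and Asap2, which are GTPases or their regulators, in the cytoskeletal linkers Dst and Macf1, in the motor gene Myo1e and in the integrin gene Itga9. Loss DARs lay in Dock5, a Rac activator of osteoclasts, in the exchange factor gene Arhgef3 and in Itga9. Both intervals of the gain share included that of all DARs. The density was 2.09 per Mb (1.27 to 3.22) for the calcium list and 1.36 per Mb (0.677 to 2.43) for the podosome list, beside 1.3 per Mb for all protein-coding genes.

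Other lists held 3 members or fewer. Of 50 interferon genes, 2 were hosts. Irf2, a regulator of interferon responses, had a gain DAR 8801 bp from a listed non-coding TSS, and Tbk1, the kinase that activates IRF3, had a loss DAR 3417 bp from its own TSS. Among 52 BAF and bromodomain genes, the gain DAR of Dpf3, a BAF subunit gene, was the only one. Of 54 genes of NF-κB, MAPK and PI3K signalling, 3 were hosts, with gain DARs in Map3k5 and Ralgapa2 and a loss DAR in Rptor, part of mTORC1. Of 60 phospholipid genes, the lipid kinase genes Pik3c3 and Pip4k2a had 1 loss DAR each. Of the 50 marker genes of other cell types, 1 was a host, the B-cell factor gene Ebf1, with a loss DAR. The densities were 3.03 per Mb for the interferon list (0.367 to 11), 0.385 for BAF and bromodomain genes (0.00976 to 2.15), 0.552 for NF-κB, MAPK and PI3K signalling (0.0669 to 1.99), 1.08 for phospholipid genes (0.131 to 3.91) and 0.86 for markers of other cell types (0.0218 to 4.79). Each of these intervals included the 1.3 per Mb of all protein-coding genes.

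Motif letters were counted on both strands of each DAR and in flanks of the same width 1 kb beyond each end. The AP-1 letters TGANTCA were in 13.6% of later-intron DARs (155 of 1137) and in 5.98% of their flanks. The share was similar in first-intron DARs, at 13.0% (10.4 to 16.1), and 10.8% among all 5650 DARs. Within later introns the AP-1 letters were in 11.7% of gain and 16.2% of loss DARs. The PU.1 letters GAGGAAGT were in 3.96% of later-intron DARs and 0.88% of flanks, with 3.27% for gain and 4.85% for loss. The later-intron share was close to the 3.66% of all DARs, and first-intron DARs gave 5.27% (3.67 to 7.52). The C/EBP letters TTGCNNAA were in 6.54% of gain and 10.1% of loss DARs, with 8.4% in the flanks and 7.49% among all DARs. For these 3 motifs the loss share was the higher, and the gain and loss intervals overlapped in each. The loss share was also the higher for RUNX and for the STAT, IRF and CTCF letters given below, so this order is not particular to these 3. The RUNX letters TGTGGTT were in 4.67% of gain and 6.06% of loss DARs, against 3.65% of flanks and 4.74% of all DARs. Forkhead letters, GTAAACA or ATAAACA, were in 7.01% of gain and 5.86% of loss DARs, against 8.14% of flanks and 5.03% of all DARs.

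The remaining motifs were in few members. The E-box CACGTG was in 2.46% of later-intron DARs, the STAT letters TTCNNNGAA in 5.19%, an IRF motif in 1.76% and the core of the CTCF motif in 2.9%. Among all DARs these shares were 3.56%, 4.64%, 1.91% and 5.01%. In the flanks of later-intron DARs they were 2.81%, 7.04%, 2.64% and 2.11%, so only the CTCF letters were rarer there than in the DARs. For gain and loss, the E-box gave 2.65% and 2.22%, STAT 4.83% and 5.66%, IRF 1.71% and 1.82%, and CTCF 2.8% and 3.03%, with overlapping intervals in each. No motif contains another, though matches can overlap in a sequence. The AP-1, E-box and STAT letters read the same on both strands. A match describes letters, not a bound site. The GC content of later-intron DARs averaged 48.6% (SD 5.67 over 1137 DARs), with 48.8% for gain and 48.3% for loss, and 80.7% of members had more GC than their flanks, which averaged 42.7%. First-intron DARs averaged 48.8% and all DARs 50.7%.

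**Figure D5:**
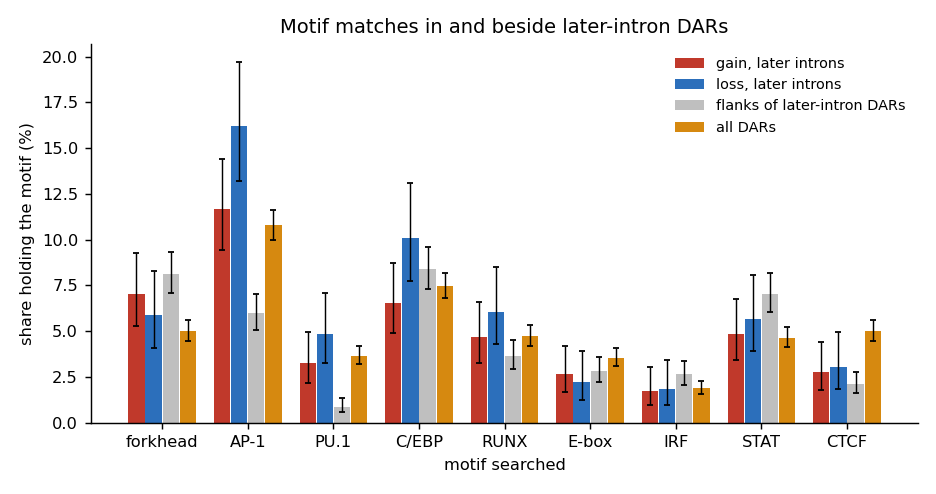
Share of later-intron gain DARs (red), later-intron loss DARs (blue), flanks of later-intron DARs (grey) and all DARs (orange) that hold each of 9 motifs, in percent with 95% Wilson intervals. AP-1 is in 11.7% of gain and 16.2% of loss DARs, against 5.98% of flanks.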

How the data were processed

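Open chromatin was measured by ATAC-seq in RANKL-treated BMDMs, with 1 library for vector and 1 for iBRD9. Per the labels and methods, the authors trimmed reads with cutadapt 1.9.1, aligned them to GRCm39 with Bowtie2 2.2.6, removed duplicates with Picard 1.126, brought both libraries to a common depth and called peaks with MACS3. Regions of the merged peak set past an absolute log2 fold change of 0.5 became DARs. The authors deposited 3 tables of DARs with positions, an annotation and a signed distance to the TSS. They hold no counts, signal, fold change or p-value, so no DAR was ranked or filtered by strength. Chromosomes X and Y are numbered 20 and 21 there and were renamed here.

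The host gene was found in GENCODE M39 for 1131 of the 1137 members, the host transcript for 1115 and the listed gene for 1116. Shares carry 95% Wilson intervals, medians binomial intervals and densities exact Poisson intervals. Members that share a host or intron are not independent. Counts, distances, sequences and motifs were computed with pysam 0.24.0, pandas 2.3.3, scipy 1.17.1 and numpy 2.4.6 under Python 3.11.15, and were checked on simulated regions first. The members, the 10 gene lists (606 genes), the bins and the measures were chosen with earlier results of these data known. Named genes are hosts of 3 or more members, list genes with a member, hosts of a mixed pair in 1 intron, the 3 most extreme DARs by width (each direction), distance (nearest and farthest) and intron number, and listed genes other than the host shared by 2 or more members. Others are said to be named after their values were seen. Some genes under this rule are not reported here. Sequences to print were read for DARs of at most 300 bp in introns of osteoclast and myeloid factor genes, on chromosomes other than 18.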

Additional observations from a re-analysis of the deposited data

How the results depend on the processing

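No paired analysis was possible because each group is 1 library and no result comes from a test. Of 89 alternatives over 17 results, 25 say little about stability, since merging DARs within 1 kb merged none (8) and keeping autosomes dropped 1 DAR (17). Of the rest, 48 moved a value by less than its interval and 16 by more, and none reversed a direction. The gain share stayed between 53.9% and 58.2%. Keeping only DARs more than 10 kb from the listed TSS gave a share of 47.4% listed under another gene (loss 50.9%) and median distances of 28840.5 bp (gain 28480, loss 29258), by construction. Taking the nearest protein-coding TSS, chosen after seeing the data, gave 21.2% (gain 21.1%, loss 21.4%) and medians of 47722 bp (gain 44301, loss 50592). Where the listed gene was the host, the medians were 16232.5 bp (gain 15078, loss 17484), and with 1 DAR per host they were 17383 bp (gain 15006). The other alternatives added after seeing the data were the canonical transcript and keeping DARs 1 to 3000 bp from the TSS. A stricter fold change threshold was not tried, since the tables give no strength or depth for a DAR.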
